A study of Homo sapiens with 4 samples.

Results

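The genes described here are the transcriptional effectors YAP1 and WWTR1 (the gene of TAZ), their DNA-binding partner TEAD1, and genes known as their targets or feedback regulators. The rule took every row whose gene name equals one of 10 names, YAP1, WWTR1, TEAD1, CYR61, CTGF, ANKRD1, AMOTL2, AXL, LATS2 and AJUBA. All 10 were found among the 58735 genes listed, with CYR61 and CTGF under these older names for CCN1 and CCN2. They were measured by RNA-seq of poly-A RNA from HaCaT cells, an immortalized human keratinocyte line that the labels give as wild-type. Both groups received 200 pmol of siRNA by lipid transfection, a negative control siRNA in siControl and siRNA against the m6A demethylase ALKBH5 in siALKBH5, with 2 libraries in each group. The labels name neither the ALKBH5 siRNA used, nor the time of harvest or the density of the cells, nor whether the duplicates were separate cultures, so p-values measure only the spread between these libraries. A lower level in such bulk libraries can come from fewer cells expressing a gene or from less RNA per cell, and these cannot be told apart.

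In the Hippo pathway, a cascade of kinases ending in LATS1 and LATS2 phosphorylates YAP and TAZ and keeps them out of the nucleus. When the cascade is quiet, as in spread or stretched cells, YAP and TAZ enter the nucleus and, lacking a DNA-binding domain of their own, bind TEAD factors at promoters and enhancers. In the epidermis they are known for their activity in basal keratinocytes and in wound repair, and some of their targets, among them AMOTL2 and LATS2, act back on the pathway as inhibitors.

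The promoter windows of these genes are shown first, because several of the genes are known as TEAD targets and TEAD factors recognize a short DNA sequence. RefSeq windows on GRCh38.p14, each of 300 bases from 250 before to 50 after an annotated start, were matched for 8 of the 10 genes and held 12 starts. TEAD1 and CYR61 had no entry. The TEAD motif GGAATG, or CATTCC when it lies on the opposite strand, was found 10 times, in 7 of the 12 windows and in 7 of the 8 genes. It was present in 14% of 35116 windows of the same length, 1.36% held 2 or more matches and 0.125% held 3 or more. CTGF had 3 matches, ANKRD1 had 2, and YAP1, AMOTL2, AXL, LATS2 and AJUBA had 1 each, while neither window of WWTR1 had a match. The AP-1 motif TGACTCA, or TGAGTCA on the opposite strand, was present in 4.95% of all windows and in 0 of the 12. An overlap of the 2 motifs could therefore not be examined here. A match describes letters in a window and is not evidence of binding.

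Of these windows, CTGF and ANKRD1 are printed for their several matches. YAP1 and AXL are printed as the genes called between the groups whose match lies before any exon of the gene in the window. Those of AJUBA and AMOTL2 lie beyond the first exon base of their windows. Each sequence is RefSeq's GRCh38.p14, written 5′ to 3′ on the strand of the gene, with the TEAD motif in capitals, and ends before the RefSeq start or the first exon of the gene in GENCODE 29. They lie at chr6:131951374-131951622 (minus strand, CTGF), chr10:90921277-90921337 (minus strand, ANKRD1), chr11:102110197-102110446 (plus strand, YAP1) and chr19:41226505-41226754 (plus strand, the second of the AXL starts, within the gene and outside its GENCODE exons).
CTGF: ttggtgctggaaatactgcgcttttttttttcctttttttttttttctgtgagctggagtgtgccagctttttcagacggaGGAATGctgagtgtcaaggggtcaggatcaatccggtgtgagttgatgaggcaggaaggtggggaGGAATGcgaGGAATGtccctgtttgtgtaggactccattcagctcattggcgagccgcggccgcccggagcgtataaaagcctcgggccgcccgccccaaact
ANKRD1: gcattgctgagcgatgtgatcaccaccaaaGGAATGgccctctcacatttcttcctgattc
YAP1: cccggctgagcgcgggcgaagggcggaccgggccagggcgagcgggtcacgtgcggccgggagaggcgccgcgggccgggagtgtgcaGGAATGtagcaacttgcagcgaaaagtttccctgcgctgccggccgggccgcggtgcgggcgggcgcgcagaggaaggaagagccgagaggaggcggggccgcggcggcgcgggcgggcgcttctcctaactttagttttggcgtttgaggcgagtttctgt
AXL: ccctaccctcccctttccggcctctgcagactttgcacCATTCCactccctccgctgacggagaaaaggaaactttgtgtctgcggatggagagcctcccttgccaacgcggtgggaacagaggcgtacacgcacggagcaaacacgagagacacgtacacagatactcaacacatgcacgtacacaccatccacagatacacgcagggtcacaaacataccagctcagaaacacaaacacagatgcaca
The CTGF matches began 169, 104 and 95 bases before the start, all on the strand of the gene. In ANKRD1 they began 220 and 128 bases before it, and the second is not printed because the GENCODE gene begins 189 bases upstream of the RefSeq start. The match of YAP1 began 162 bases before its start and that of AXL, on the opposite strand, 212 bases before it.

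**Figure D1:**
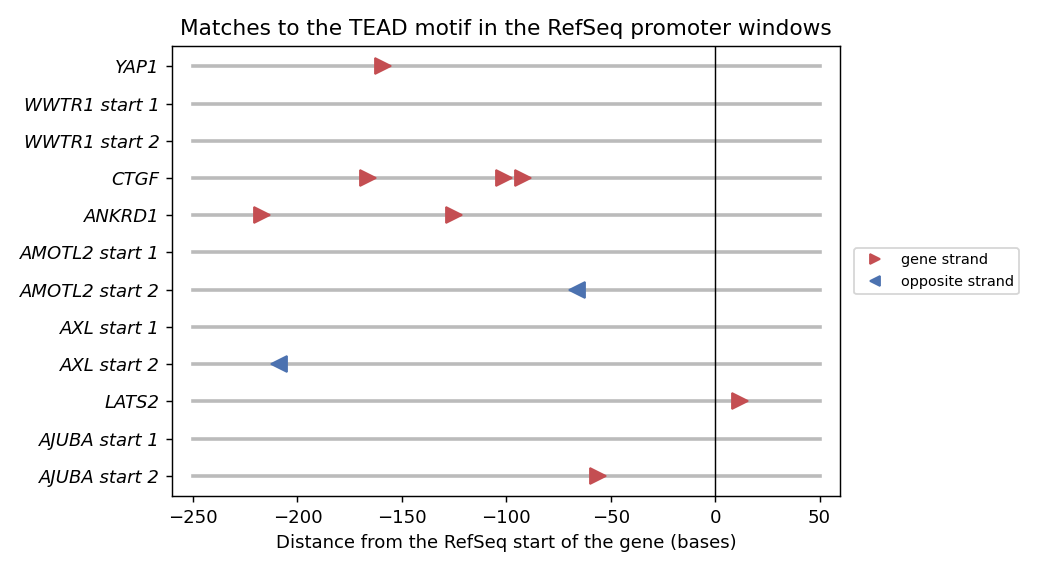
Position of each TEAD motif match (arrowheads, pointing in the direction of the motif) along the 12 RefSeq promoter windows (grey lines), as distance from the annotated start in bases. CTGF has 3 matches within 169 bases of its start, and the WWTR1 windows have none.

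The libraries held 16017502 to 18837807 counts on genes, mitochondrial transcripts took 10.2% of counts in each siControl library and 9.63% and 9.64% after knockdown, and 15075 genes passed the expression filter. ALKBH5 itself was at 93.7 and 87.5 CPM (counts scaled to a common library size with TMM factors) in siControl and at 51.1 and 49.5 CPM in siALKBH5, so that it fell by 0.85 on the log2 scale (standard error 0.05, adjusted p = 6.4e-15 by edgeR's quasi-likelihood test). With 2 libraries against 2, no permutation of labels can give a p under 0.05, so the tests rest on a spread estimated jointly over genes. Calls were made at an adjusted p under 0.05. A list of 8 keratinocyte markers was present in full, with a summed level of 16300 to 16650 TPM (counts per listed gene length, scaled to a common sum) in siControl and of 21130 to 21180 TPM in siALKBH5. KRT5, KRT14, KRT6A and SFN of this list were higher in siALKBH5 and KRT17 and TP63 were lower. Of 7 fibroblast markers COL1A2, PDGFRA and PDGFRB were at 0 counts in every library, and the summed level of the list was 7.57 to 7.60 TPM in siControl and 5.90 to 6.12 TPM in siALKBH5. COL1A1 made up most of that sum and was not called, while LUM and DCN, at 15 to 71 counts in a library, fell by 1.08 and 1.25 on the log2 scale (adjusted p = 0.021 and 5.0e-04, edgeR's quasi-likelihood test). The 5 melanocyte markers summed to 2.08 to 2.47 TPM in siControl and 2.44 to 2.89 TPM in siALKBH5, with TYRP1 and TYR at 0. The 3 endothelial markers summed to 11.6 to 11.8 TPM and 11.2 to 11.5 TPM, with PECAM1 at 0 or 1 counts. Of these VWF rose by 0.51 and CDH5 fell by 0.69 on the log2 scale (adjusted p = 2.1e-05 and 5.0e-05). The 3 leukocyte markers summed to at most 0.296 TPM. The part of these markers in the values below was not tested.

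The 10 genes differed widely in level. By their mean TPM over all 4 libraries they ranked from above 18.1% (CTGF) to above 96.7% (AJUBA) of the 27826 genes detected in any library. Per length, AJUBA and YAP1 were the highest of them, at 128 ± 2.69 and 115 ± 0.34 TPM in siControl (SD, n = 2). AMOTL2 followed at 43.6 ± 1.41 TPM, then WWTR1 at 20.4 ± 0.67 TPM. AXL at 16.5 ± 1.38 TPM and TEAD1 at 15.2 ± 0.54 TPM were neighbours whose siControl libraries overlapped. LATS2 at 11.3 ± 0.61 TPM and CYR61 at 6.59 ± 0.76 TPM came next. The last pair, ANKRD1 at 0.43 ± 0.03 TPM and CTGF at 0.15 ± 0.01 TPM, lay far below the others, CYR61 being 15.4 times as high as ANKRD1. In siALKBH5 the order was the same except that TEAD1 (15.2 ± 0.84 TPM) stood above AXL (13.8 ± 0.05 TPM), without overlap of their libraries. All other neighbours were apart in both groups, but the counts of ANKRD1 and CTGF were so few that their counting intervals overlapped. Of the 8 genes with a promoter window, ANKRD1 and CTGF held the most TEAD motif matches and had the lowest transcript levels. The others did not follow that order, as WWTR1 without a match lay below AJUBA and YAP1 with 1 match each. A relation of matches to levels was not tested.

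**Figure D2:**
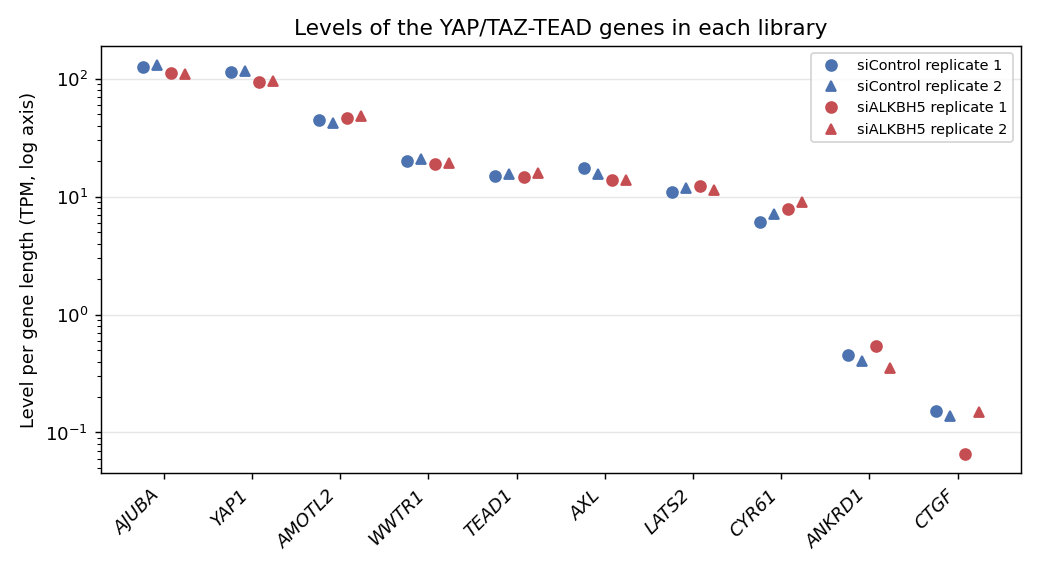
Level per gene length (TPM, log axis) of the 10 genes in each library, with siControl in blue and siALKBH5 in red, circles for replicate 1 and triangles for replicate 2. AJUBA and YAP1 lie near 100 TPM and above, and ANKRD1 and CTGF below 1 TPM in all 4 libraries.

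YAP1 transcripts were lower after ALKBH5 knockdown, whereas no difference was called for WWTR1 or TEAD1. YAP1 (ENSG00000137693, chr11:102110461-102233423), the more abundant of the paired coactivators, was at 251 and 252 CPM in the siControl libraries and at 207 and 212 CPM in the siALKBH5 libraries. The groups did not overlap, and the siALKBH5 mean was 83.4% of the siControl mean. YAP1 fell by 0.26 on the log2 scale (95% confidence interval -0.33 to -0.20, adjusted p = 1.8e-08, edgeR's quasi-likelihood test).

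WWTR1 (ENSG00000018408, chr3:149517235-149736714), which encodes TAZ, was at 58.1 and 60.8 CPM in siControl and at 55.9 and 56.2 CPM in siALKBH5. Both siALKBH5 libraries lay below both siControl libraries, but by little, at 94.3% of the control mean. Its log2 fold change was -0.09 (95% confidence interval -0.20 to 0.03, adjusted p = 0.24, edgeR's quasi-likelihood test). An antisense gene, WWTR1-AS1, shares 795 exonic bases with it and had 8 to 15 counts per library. Reads from the shared bases cannot be told apart without strand information. Exons of YAP1, AMOTL2, CTGF, AXL and AJUBA also overlap those of another gene, which had at most 3 counts in a library. How far such overlaps change the counts was not tested. Set against each other per length, YAP1 was 5.66 ± 0.17 times as high as WWTR1 in siControl and 5.00 ± 0.06 times in siALKBH5 (SD, n = 2). WWTR1 thereby made up 14.8% and 15.3% of the summed TPM of both coactivators in siControl, and 16.8% and 16.6% in siALKBH5, without overlap.

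TEAD1 (ENSG00000187079, chr11:12674591-12944483), a transcription factor through which YAP and TAZ reach DNA, was at 52.9 and 55.4 CPM in siControl and at 52.2 and 56.5 CPM in siALKBH5. The siALKBH5 libraries enclosed the siControl libraries. Its log2 fold change of 0.00 had a 95% confidence interval of -0.12 to 0.12 (adjusted p = 0.98, edgeR's quasi-likelihood test) and turned to -0.02 when counts were scaled by library size only.

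Of the target genes, AXL was called lower and AMOTL2 higher, and the classical secreted targets were either not called or hardly detected. CYR61 (ENSG00000142871, chr1:85580761-85583962), a matricellular protein of the CCN family, had 83 and 109 counts in siControl, against 126 and 128 in siALKBH5. These are 5.14 and 6.05 CPM against 6.74 and 7.77 CPM, so that both siALKBH5 libraries lay above both siControl libraries, with a mean at 130% of control. The log2 fold change was 0.37 (95% confidence interval 0.03 to 0.70) at an unadjusted p of 0.033, and after adjustment over all genes it was not called (adjusted p = 0.081, edgeR's quasi-likelihood test). It was called in 0 of 10 alternative settings.

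CTGF (ENSG00000118523, chr6:131948176-131951373), the other secreted CCN protein of the group, had 2 and 2 counts in siControl, against 1 and 2 in siALKBH5. It did not pass the expression filter, each library was at or under the floor of 3 counts, and a difference between the groups was not detectable at this depth. The pooled level was 0.118 CPM in siControl (exact Poisson 95% interval 0.0322 to 0.302) and 0.0846 CPM in siALKBH5 (0.0175 to 0.247), intervals that cover counting error only. ANKRD1 (ENSG00000148677, chr10:90912096-90921276), an ankyrin repeat protein best known from heart muscle and a common reporter of YAP activity, had 5 and 5 counts against 7 and 4 counts. Its libraries overlapped and it did not pass the filter either. Its pooled level was 0.295 CPM (0.142 to 0.543) in siControl and 0.310 CPM (0.155 to 0.555) in siALKBH5. For both genes a fit without the filter gave no call (adjusted p = 0.89 for CTGF and 0.97 for ANKRD1, edgeR's quasi-likelihood test).

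AXL (ENSG00000167601, chr19:41219203-41261766), a receptor tyrosine kinase for the ligand GAS6, was at 31.2 and 27.7 CPM in siControl and at 24.8 and 24.7 CPM in siALKBH5. The groups did not overlap, and the siControl libraries lay further from each other than the siControl replicate 2 library lay from those of siALKBH5. AXL fell by 0.25 on the log2 scale (95% confidence interval -0.42 to -0.08, adjusted p = 0.017, edgeR's quasi-likelihood test). Without siControl replicate 1 the log2 fold change was -0.16 and was not called (adjusted p = 0.27), and without siALKBH5 replicate 1 or with DESeq2 the adjusted p was 0.057 and 0.11.

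AMOTL2 (ENSG00000114019, chr3:134355874-134375479), an angiomotin family scaffold that binds YAP at cell junctions, was at 92.4 and 88.1 CPM in siControl and at 96.0 and 102 CPM in siALKBH5. It rose by 0.13 on the log2 scale to 110% of the control mean, without overlap of the groups (95% confidence interval 0.04 to 0.22, adjusted p = 0.021, edgeR's quasi-likelihood test). This call was lost with DESeq2 (adjusted p = 0.11), with scaling by library size only (0.057), and without siControl replicate 2 or siALKBH5 replicate 2 (0.22 each).

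Both remaining genes act on the LATS step of the pathway. LATS2 (ENSG00000150457, chr13:20973032-21061547), the kinase that phosphorylates YAP and TAZ and is itself a target, was at 21.1 and 22.7 CPM in siControl and at 24 and 22.3 CPM in siALKBH5. The groups overlapped, and the log2 fold change of 0.08 was not called (95% confidence interval -0.10 to 0.26, adjusted p = 0.51, edgeR's quasi-likelihood test).

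AJUBA (ENSG00000129474, chr14:22971174-22982642), a LIM domain protein that binds LATS kinases at junctions and restrains them, was the most abundant of the group, at 262 and 269 CPM in siControl and at 234 and 231 CPM in siALKBH5. The groups did not overlap and the siALKBH5 mean was 87.6% of that of siControl. AJUBA fell by 0.19 on the log2 scale (95% confidence interval -0.25 to -0.13, adjusted p = 4.5e-06, edgeR's quasi-likelihood test). YAP1 and AJUBA were called lower in 10 of 10 alternative settings.

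**Figure D3:**
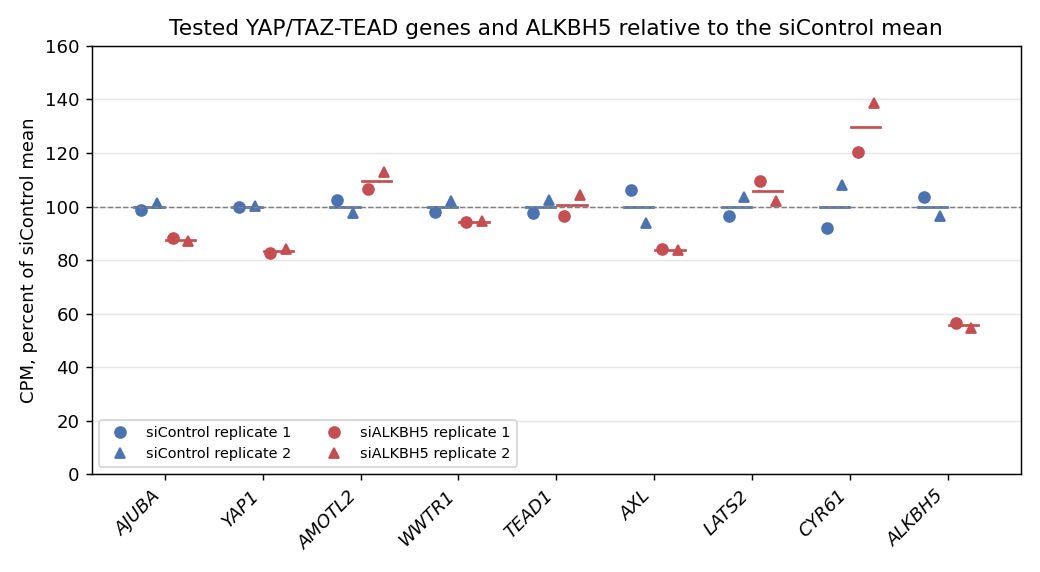
CPM of the 8 tested genes and of ALKBH5 in each library as percent of the siControl mean, with horizontal bars at the group means, blue for siControl and red for siALKBH5. YAP1, AJUBA and AXL lie at 83.4%, 87.6% and 83.9% of control, and ALKBH5 at 55.5%.

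Across the group, 3 of the 8 tested genes were called lower (YAP1, AXL and AJUBA), against 17.3% of all 15075 genes tested, and 1 was called higher (AMOTL2), against 19.3%. In either direction 4 of 8 were called, where 36.6% of all genes were. With DESeq2 the called genes were 1431 lower and 2052 higher of 13604 over all genes, and 2 lower and 0 higher of the 8. Both siALKBH5 libraries lay below both siControl libraries in 4 of the 8 (33.5% of all genes tested) and above them in 2 of the 8 (32.8%), which makes 6 of 8 without overlap, against 66.3%. None of the 8 was called with a log2 fold change of 1 or more in size, as were 2.92% of all genes, 1.3% lower and 1.62% higher. The median log2 fold change of the 8 was -0.04, and that of all genes tested was -0.01. CTGF and ANKRD1, which did not pass the filter, are in none of these counts.

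The other TEAD factors and the TEAD-binding cofactors were examined as a list of 7 genes, of which 6 were tested, 2 were higher (33.3%, against 19.3% of all genes) and 2 were lower (33.3%, against 17.3%). TEAD2 was at 10.5 and 11.1 CPM in siControl and at 14.97 and 14.2 CPM in siALKBH5, and rose by 0.43 on the log2 scale (standard error 0.12, adjusted p = 4.2e-03, edgeR's quasi-likelihood test). TEAD4 was at 13.0 and 12.4 CPM against 16.3 and 15.4 CPM, and rose by 0.32 (standard error 0.11, adjusted p = 0.025). TEAD3, at 51.2 and 53.3 CPM against 57.2 and 57.9 CPM, had a log2 fold change of 0.14 that was not called (standard error 0.06, adjusted p = 0.056). In these values TEAD1 was the one TEAD gene whose libraries overlapped between the groups.

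Per length, TEAD3 was the most abundant TEAD transcript in all 4 libraries, at 3.26 ± 0.02 times the level of TEAD1 in siControl and 3.58 ± 0.17 times in siALKBH5 (SD, n = 2). The share of TEAD1 in the summed TPM of TEAD1, TEAD2, TEAD3 and TEAD4 was 16.5% and 16.8% in siControl and 14.1% and 15.2% in siALKBH5. The share of TEAD2 was 11.3% and 11.6% against 13.9% and 13.2%. TEAD3 held 54.2 ± 0.46% of the sum in siControl and 52.4 ± 0.44% in siALKBH5, and TEAD4 held 17.7 ± 0.91% and 19.3 ± 0.74%. The 4 shares of a library sum to the whole, so they do not move independently, and with 2 libraries per group they are given without a test. Without the correction for length, as shares of raw counts, TEAD1 held 41.7% in siControl and 38.2% in siALKBH5, and TEAD3 40.2% and 40.4%. In siControl the order of TEAD1 and TEAD3 thus rests on the listed gene lengths, which may differ from those of the transcripts expressed.

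Vestigial-like proteins bind the TEAD surface that YAP and TAZ also use. VGLL3 was at 28.1 and 28.97 CPM in siControl and at 19.7 and 19.4 CPM in siALKBH5, and fell by 0.55 on the log2 scale (standard error 0.09, adjusted p = 3.6e-06, edgeR's quasi-likelihood test). VGLL1 was at 7.06 and 7.66 CPM against 5.24 and 5.16 CPM, and fell by 0.50 (standard error 0.16, adjusted p = 0.014). VGLL4, a known antagonist of YAP at TEAD, was at 43.1 and 44.9 CPM against 41.0 and 39.9 CPM and was not called (log2 fold change -0.12, adjusted p = 0.15). VGLL2 had at most 1 count in a library and was not tested. With DESeq2 this list held 1 gene called higher and 1 called lower, where over all 13604 genes 2052 were higher and 1431 lower. With DESeq2's size factors in the edgeR fit it held 3 called higher. Fewer were called higher without siControl replicate 1, siControl replicate 2 or siALKBH5 replicate 1. Fewer were called lower without siControl replicate 2 or siALKBH5 replicate 2. In each of these fits both counts were also smaller over all genes.

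**Figure D4:**
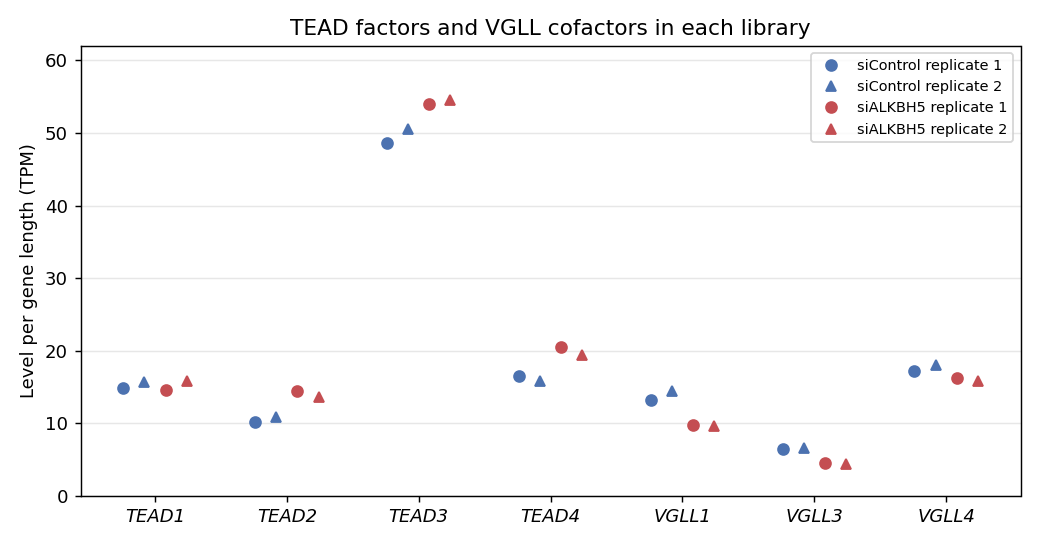
Level per gene length (TPM) of the 4 TEAD genes and of the tested VGLL genes in each library, siControl in blue and siALKBH5 in red. TEAD3 is the highest throughout, TEAD2 and TEAD4 are higher in both siALKBH5 libraries, VGLL1 and VGLL3 are lower in both, and the TEAD1 libraries overlap.

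The upstream part of the pathway did not move in one direction. Of 14 tested genes of the kinase cassette, which relays the signal to YAP and TAZ, 4 were lower and 1 was higher. These are 28.6% and 7.14%, against 17.3% and 19.3% of all genes. In either direction 35.7% were called, where 36.6% of all genes were. The higher gene was MAP4K4, a kinase that can act on LATS in parallel to the MST kinases, which rose by 0.39 on the log2 scale (standard error 0.05, adjusted p = 4.8e-08, edgeR's quasi-likelihood test). Its relatives MAP4K3 and MAP4K5 fell by 0.25 and 0.20 (adjusted p = 0.020 and 0.015), and MOB1A, the coactivator of LATS kinases, fell by 0.17 (adjusted p = 1.9e-04). The lower genes of the cassette numbered 1 with DESeq2, which called 1431 of 13604 genes lower over all genes. They were also fewer without siControl replicate 2 or siALKBH5 replicate 1, as were the lower genes over all genes. Of 18 tested genes that act upstream at junctions and in polarity complexes, 5 were lower and 5 were higher, 27.8% each, against 17.3% and 19.3% of all genes. NF2, the tumour suppressor merlin, rose by 0.42 (standard error 0.07, adjusted p = 2.8e-05). FRMD6, a FERM domain protein, fell by 0.41 (standard error 0.03, adjusted p = 7.8e-12), PATJ of the Crumbs complex fell by 0.31 (adjusted p = 5.4e-05), and WWC2 of the KIBRA family fell by 0.28 (adjusted p = 0.035). The lower genes of this list numbered 2 with DESeq2 or without the filter, where 1431 of 13604 and 2391 of 27826 genes were lower. Of the fits with 1 library left out, they were fewest without siControl replicate 1 or siALKBH5 replicate 1. The lower genes over all genes were also fewer in these fits than in the main fit.

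The 16 genes listed from a known YAP/TAZ target signature, which also holds CYR61, CTGF, ANKRD1, AMOTL2, AXL and LATS2, were all tested. Of the 16, 5 were lower (31.2%, against 17.3% of all genes) and 4 higher (25%, against 19.3%). PTPN14, called lower, is in this list and in that of the upstream genes, and both counts include it. IGFBP3, a secreted binding protein of insulin-like growth factors, was at 924 and 940 CPM in siControl and at 495 and 498 CPM in siALKBH5. It fell by 0.91 on the log2 scale (standard error 0.02, adjusted p = 2.6e-26, edgeR's quasi-likelihood test), more than any of the 8 tested genes of the group. CCDC80, an extracellular matrix protein, was at 962 and 955 CPM against 605 and 614 CPM and fell by 0.65 (adjusted p = 1.3e-22). F3, tissue factor, fell by 0.29 (adjusted p = 1.0e-04). In the other direction NT5E, the ectonucleotidase CD73, was at 7.31 and 6.05 CPM in siControl and at 10.7 and 13.0 CPM in siALKBH5 and rose by 0.83 (standard error 0.15, adjusted p = 2.5e-05). The median log2 fold change of the 16 genes was 0.02. Over all 53 tested genes of these 4 lists, with PTPN14 not counted again, it was 0.05. Of the 53, 15 were lower (28.3%, against 17.3% of all genes) and 12 higher (22.6%, against 19.3%). The higher genes of the 16 numbered 2 with DESeq2, which called 2052 of 13604 genes higher over all genes. Of the fits with 1 library left out, the higher genes were fewest without siALKBH5 replicate 1 and the lower genes without siControl replicate 2. Calls over all genes were also fewer in these fits than in the main fit.

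**Figure D5:**
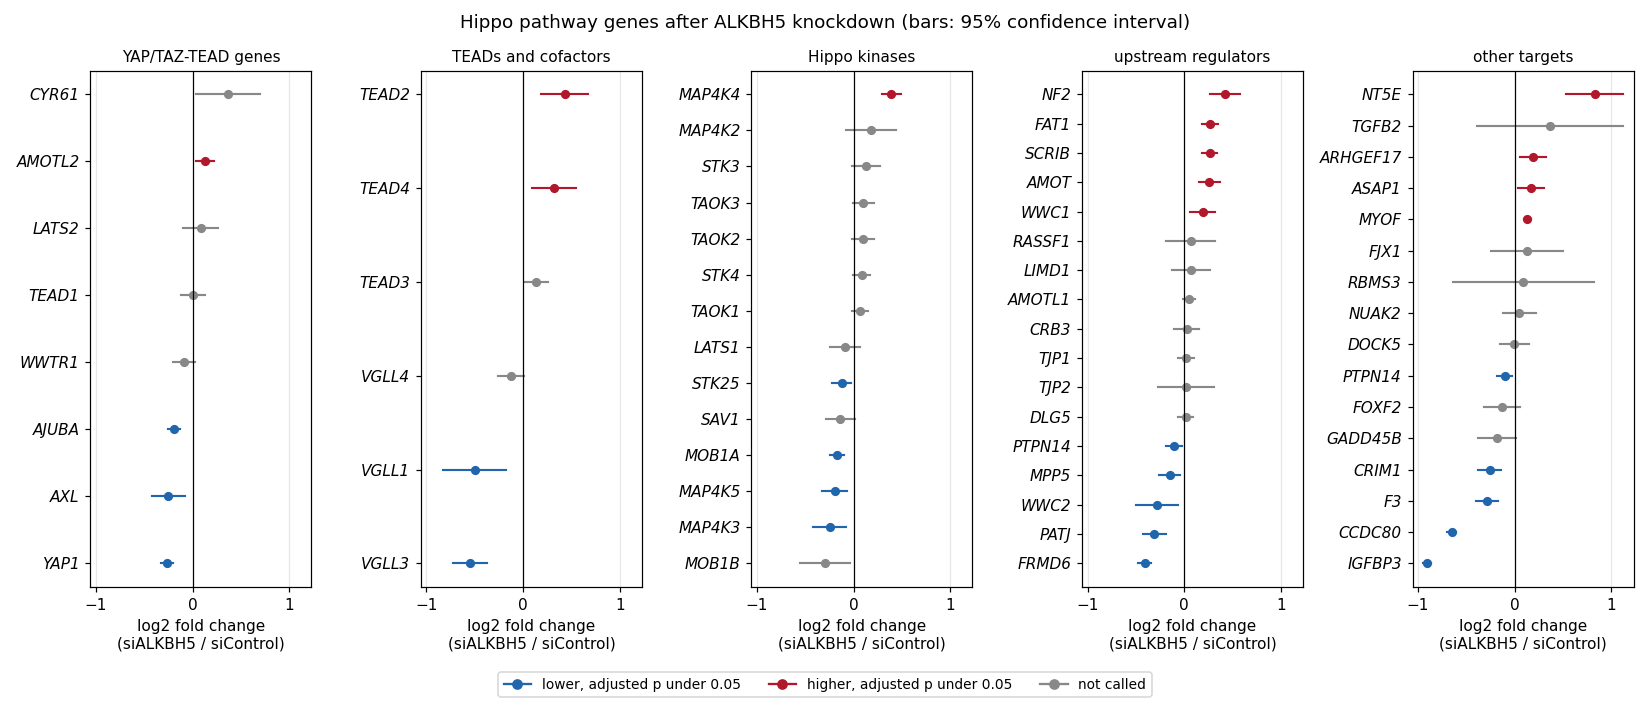
Log2 fold change of siALKBH5 against siControl (points) with 95% confidence intervals (bars) for the tested genes of the group and of the 4 pathway lists at a mean of at least 1 CPM. Called genes are blue where lower and red where higher, each list holds both, and the intervals of YAP1 and AJUBA are narrow beside those of CYR61 and AXL.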

How the data were processed

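The authors extracted total RNA from HaCaT cells, enriched poly-A RNA and sequenced 1 library per sample. The submitters' processing notes name CASAVA, HISAT2 2.0.5, featureCounts 1.5.0-p3, DESeq2 1.20.0 and hg38, without saying whether reads were counted by strand. The authors deposited 1 table per replicate with raw counts per gene, which were used as deposited. The FPKM columns, which the authors scaled within each table, were not used, nor were the columns of the authors' own comparisons, which hold log2 fold changes, p-values and adjusted p-values. All 58735 gene identifiers and coordinates are those of GENCODE 29. Libraries held 16017502 to 18837807 counts, and intervals and floors cover counting error only.

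The members and gene lists were chosen with earlier results of these data known. Groups came from sample titles. The 4 libraries were fitted together, with no covariates, by the quasi-likelihood functions of edgeR 4.0.16 (R 4.3.3), after its filterByExpr filter and TMM scaling, with Benjamini-Hochberg adjustment over the 15075 genes tested. The steps were tested on simulated counts with the same spread for every gene and independent libraries. Such counts cannot check the p-values where spread differs between genes or libraries share a culture. The common biological coefficient of variation was 0.0253. Duplicates differed by more than sampling noise (chi-square per degree of freedom 1.74 and 1.85) and were kept apart. TPM were computed from the counts and the listed gene lengths, which may differ from the lengths of the transcripts expressed. Named genes are the 10 and ALKBH5, all TEAD and VGLL genes at a mean CPM of at least 1, and up to 4 called genes of each other list with the largest log2 fold change at that level. VGLL2 is named only as not tested, and PTPN14 only because lists share it. AMOT, AMOTL1 and LATS1 are named outside this rule, chosen after their values were seen. Cell type markers are named from their lists. Alternatives were DESeq2 1.42.0, other scalings and filters, a fold threshold, a replicate block, raw counts for shares, and each library left out in turn.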

Additional observations from a re-analysis of the deposited data

How the results depend on the processing

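YAP1 and AJUBA kept their direction and their call in 10 of 10 alternative fits, which apply no fold threshold. Their log2 fold changes were -0.28 to -0.25 and -0.21 to -0.17. AMOTL2 kept its direction, and its call was lost with DESeq2 (0.14), library size only (0.11), without siControl replicate 2 (0.096) and without siALKBH5 replicate 2 (0.093). AXL kept its direction, and its call was lost with DESeq2 (-0.25), without siControl replicate 1 (-0.16) and without siALKBH5 replicate 1 (-0.25). TEAD1 turned negative with library size only (-0.020), without siControl replicate 1 (-0.028) and without siALKBH5 replicate 2 (-0.052), and ranged from -0.052 to 0.063 with each library left out. CYR61, WWTR1 and LATS2 kept their direction, and neither they nor TEAD1 were called in any of the 10. With each library left out, CYR61 ranged from 0.26 to 0.49, WWTR1 from -0.11 to -0.05 and LATS2 from 0.03 to 0.14. The cause of these changes was not tested.

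With DESeq2, 1431 genes were called lower and 2052 higher of 13604 over all genes. Called higher were 0 of the 8 tested genes of the group, 1 of the TEAD list and 2 of the other targets. DESeq2 called lower 1 gene of the TEAD list, 1 of the kinase cassette and 2 of the upstream regulators. With library size only, 0 of the 8 tested genes of the group were called higher, and without the filter 2 upstream regulators were lower. With a fold threshold of 1 on the log2 scale, 196 genes were lower and 244 higher over all genes, and 0 in either direction in the group and in each pathway list. With each library left out in turn, 1961 to 2124 genes were lower and 2366 to 2528 higher over all genes, 2 to 3 of the 10 genes were lower and 0 to 1 higher, and 1 to 2 of the TEAD list were lower and 1 to 2 higher. In the same fits 1 to 4 kinase genes were lower and 1 higher, 2 to 4 upstream regulators were lower and 4 to 5 higher, and 3 to 5 other targets were lower and 2 to 3 higher.

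As shares of raw counts, which are not corrected for length, WWTR1 was 19.1% in siControl and 21.1% in siALKBH5, TEAD1 41.7% and 38.2%, TEAD2 8.32% and 10.2%, TEAD3 40.2% and 40.4%, and TEAD4 9.80% and 11.1%. The authors' own comparisons are labelled as between same-numbered libraries, and the labels do not say whether these were handled together. The correlation of deviations between same-numbered libraries was 0.034 over 15075 genes, and the main fit did not pair them. With the replicate number as a block, 2831 genes were lower and 3091 higher over all 15075 genes tested. Of the 8 tested genes of the group 3 were lower and 1 higher. Of the TEAD list 3 were higher, as also with DESeq2's size factors.

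Depth limits CTGF and ANKRD1, with at most 7 counts in a library, for which no fold change is given. Duplicates leave the spread of a single gene poorly known, and the labels do not say whether they were separate cultures.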

Other observations

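The closest relatives of the feedback genes are given here as values, chosen after their values were seen. AMOT, the founding angiomotin, had 940 and 1020 counts in siControl, against 1278 and 1142 in siALKBH5, and rose by 0.26 on the log2 scale (standard error 0.05, adjusted p = 1.8e-04, edgeR's quasi-likelihood test). AMOTL1, the most abundant of the 3 angiomotins per length at 60.2 ± 0.46 TPM in siControl and 61.97 ± 0.69 TPM in siALKBH5 (SD, n = 2), had a log2 fold change of 0.05 and was not called (adjusted p = 0.20). AMOTL2 lay between them in level, at 43.6 ± 1.41 and 47.4 ± 1.88 TPM, and AMOT was at 19.5 ± 0.37 and 23.2 ± 0.19 TPM. For each of the 3 both siALKBH5 libraries lay above both siControl libraries, as for 32.8% of all genes tested. The call of AMOTL2 was lost with DESeq2, and AMOTL1 had none.

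LATS1, the other kinase that phosphorylates YAP and TAZ, was at 10.9 ± 0.48 TPM in siControl and 10.2 ± 0.47 TPM in siALKBH5, close to LATS2 at 11.3 ± 0.61 and 11.9 ± 0.63 TPM (SD, n = 2). Its log2 fold change was -0.09 (95% confidence interval -0.25 to 0.06, adjusted p = 0.37, edgeR's quasi-likelihood test). Neither kinase was called. Whether their fold changes differ from each other was not tested.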
